A study of Mus musculus with 91 samples.

Results

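Glycolysis and hypoxia response genes were followed in 91 single cells from mouse bone marrow stroma. The set was a list of 32 genes: 17 core glycolytic enzymes, 4 glucose and lactate transporters, 2 flux regulators, 5 genes of oxygen sensing and 4 targets of hypoxia and stress. Of these, 29 were among the 16580 genes of the count table and all 29 passed the filter on low counts, at least 10 counts in all and a count in at least 5 cells. Aldoc, Slc16a3 and Egln3 were not analysed here. Levels are given in CPM, counts scaled to a total of 1000000 for a cell or for a sum of cells.

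The cells came from crushed bones of C57BL/6 mice, whose age and genotype the labels do not give, and each was sequenced as its own Smart-seq2 library, a full-length method. All gates shared VCAM1, an adhesion molecule of marrow stroma, a dye that sets cells apart from debris, and the absence of CD45, Ter119, CD41 and CD71, which mark blood cells. There were 39 VCAM1+CD61+ cells on plates of 17 and 22, 40 VCAM1+CD61- cells on plates of 24 and 16, and 9 VCAM1+ cells for which CD61, an integrin chain, was no criterion. A further 3 cells have a title that names one gate and a sort label that names the other, and they entered no comparison between gates. The labels name no animal, so each gate is 1 sample, no test was run, and plate and gate cannot be told apart. Intervals are exact 95% intervals for counting error only, from numbers of cells for shares of cells and from summed counts for folds. Reads of these libraries are not independent molecules. A cell had between 507713 and 6702475 counts, and the medians were 1887613 in VCAM1+CD61+ cells, 2368345 in VCAM1+CD61- cells and 4004927 in VCAM1+ cells.

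Glycolysis splits glucose to pyruvate in the cytosol, and lactate dehydrogenase turns pyruvate to lactate when oxygen or mitochondrial capacity is short. Low oxygen stabilises the transcription factors HIF1 and HIF2, whose alpha subunits, made from Hif1a and Epas1, pair with the product of Arnt and switch on glycolytic enzymes and glucose transporters. Marrow is a tissue of low oxygen tension. Its CXCL12-abundant reticular (CAR) cells support blood stem cells, while osteoblasts, which make the bone matrix protein osteopontin from Spp1, are known as glycolytic cells.

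To set these stromal states against each other, a cell was called Cxcl12-rich where Cxcl12 was at least 1000 CPM and not below Spp1, and Spp1-rich where Spp1 was at least 1000 CPM and above Cxcl12. This gave 60 Cxcl12-rich cells, 20 Spp1-rich cells and 11 cells of neither kind. The classes are ranges cut from 2 genes and not cell types, and 5 cells lay within 2-fold of equal Cxcl12 and Spp1. Both genes reached the limit in 15 cells. Among other markers the classes parted as their names say: Adipoq, a gene of CAR cells, stood at 2774 CPM in the summed Cxcl12-rich cells and 0.132 CPM in the summed Spp1-rich cells, and Bglap, the osteoblast gene for osteocalcin, at 164.5 CPM in Cxcl12-rich and 35873 CPM in Spp1-rich cells. The summed markers of other cells also differed between the classes. Of 8 endothelial markers, 6 had a count in Cxcl12-rich cells (summed 9.23 CPM, 0 to 860 CPM per cell) and 1 in Spp1-rich cells (0.435 CPM, 0 to 11.7), with Cdh5 and Emcn at 0 in both. Fibroblast markers summed to 310 CPM in Cxcl12-rich (0 to 3524 per cell) and 1906 CPM in Spp1-rich cells (221 to 5087). Erythroid markers summed to 282 CPM in Cxcl12-rich (0 to 11258) and 108 CPM in Spp1-rich cells (0 to 1450). Their median was 0 in both classes, and their upper quartile 20.7 CPM in Cxcl12-rich and 144 CPM in Spp1-rich cells. Pan blood cell markers summed to 119 CPM in Cxcl12-rich (0 to 1249) and 28.5 CPM in Spp1-rich cells (0 to 283). The part of these cells in the results below was not tested. Spp1-rich cells made up 38.5% of VCAM1+CD61+ cells (15 of 39, 23.4 to 55.4%) and 10% of VCAM1+CD61- cells (4 of 40, 2.79 to 23.7%), so each gate is a different mix of the classes. The index-sort record of forward scatter, which grows with cell size, had a median intensity of 120139 in Cxcl12-rich cells and 148500.5 in Spp1-rich cells, and the part of size in the results below was not tested.

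Glycolytic messages were present in every class and took 0.231% of the counts of all cells. The summed CPM of the core enzymes, of which 16 were in the table, had a median of 1957 in Cxcl12-rich cells (lowest 21.0, highest 3539), 2074 in Spp1-rich cells (1076 to 6109) and 3191 in cells of neither class (241 to 6860). The classes overlapped over most of their ranges. By gate the medians were 2027 CPM in VCAM1+CD61+ cells and 2012 CPM in VCAM1+CD61- cells, and the 4 plates had medians of 2004 and 2134 CPM (VCAM1+CD61+) and 1940.5 and 2242 CPM (VCAM1+CD61-). In summed cells the log2 ratio of the core enzymes was -0.24 for Cxcl12-rich over Spp1-rich cells, against -0.78, -0.40, -0.24 and 0.31 within the 4 plates (SD 0.45), so the pooled difference was smaller than the spread between plates. For VCAM1+CD61+ over VCAM1+CD61- cells it was 0.13, and leaving out 1 cell gave 0.01 to 0.16.

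The pathway was carried by a few abundant enzymes. Per kilobase of transcript in the sum of all cells, Gapdh, which oxidises glyceraldehyde 3-phosphate, had 327 CPM per kilobase, Ldha, the lactate dehydrogenase subunit that favours lactate, 302 and Aldoa, which splits fructose bisphosphate, 243. Eno1 followed with 99.6 CPM per kilobase, then Tpi1 with 92.5 and Ldhb with 92.3. Glucose uptake and the first enzyme step were scarcer. Hk1 and Hk2, the hexokinases that trap glucose, stood at 4.92 and 0.908 CPM per kilobase, and the glucose transporters Slc2a3 and Slc2a1 at 7.77 and 5.01. Eno2, the neuronal enolase, was lowest of the 29 genes at 0.307.

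The number of cells with a count did not always follow these levels: Ldhb, sixth per kilobase, was counted in 38 cells, and Hk2, second from last, in 35. Ldha had a count in 84 of 91 cells (92.3%, 84.8 to 96.9%), Gapdh in 83, Aldoa in 81, Epas1 in 79 and Bnip3l in 76. In all, 11 of the 29 genes had a count in at least 50% of cells, the others being Eno1, Hif1a, Tpi1, Pgam1, Pkm and Gpi1, and 10 genes did so when each cell was thinned to 500000 counts. At the other end, Pfkm had a count in 12 cells, Eno2 in 13 and Egln1 in 14. A cell held counts of between 2 and 23 of the 29 genes, with a median of 14. For genes counted in few cells a single cell can carry the sum: 1 cell gave 52.2% of all Egln1 counts and another 37.3% of those of Pfkfb3.

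**Figure D1:**
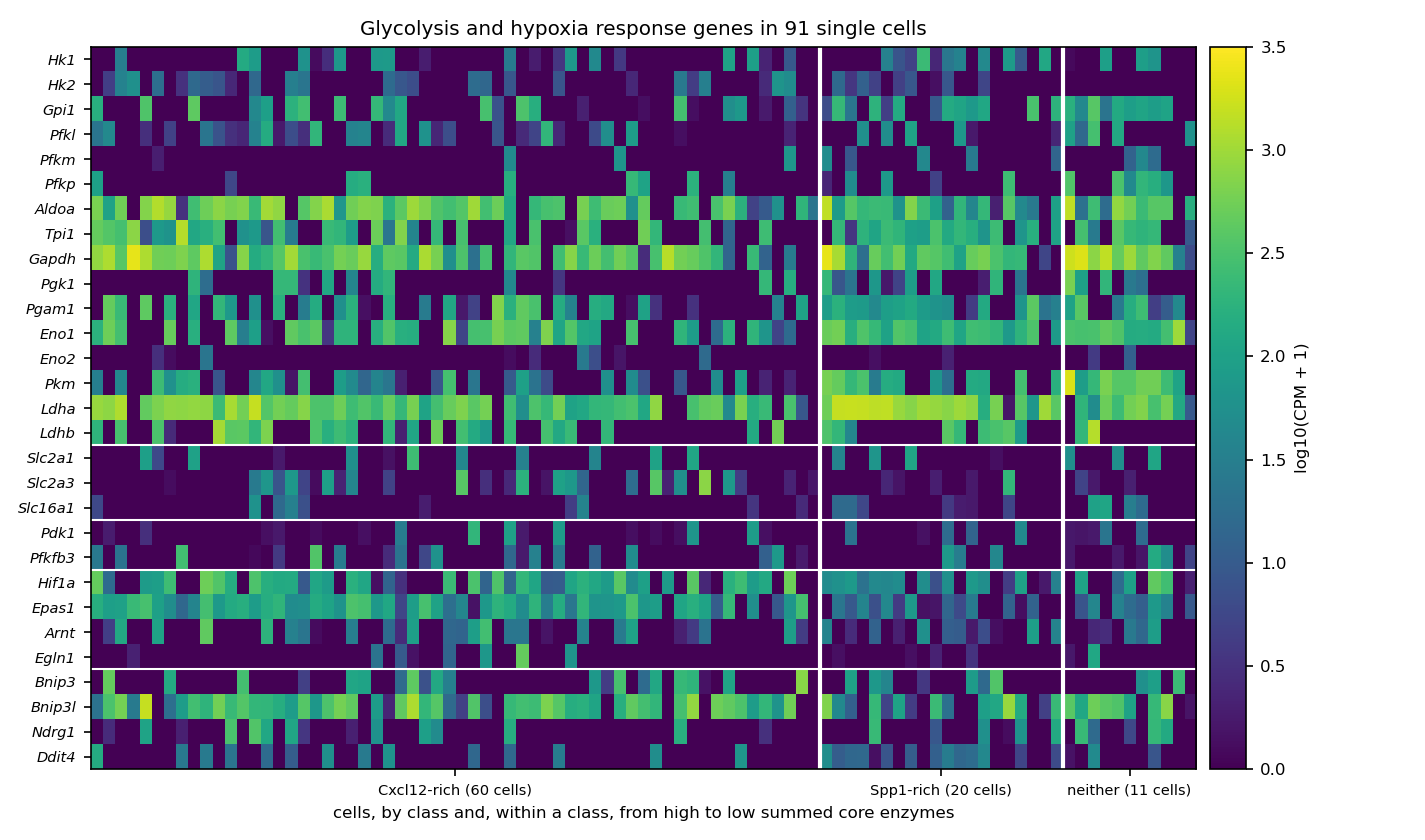
Each column is 1 of 91 cells and each row 1 of 29 genes, coloured by log10(CPM + 1). White lines part the 60 Cxcl12-rich, 20 Spp1-rich and 11 other cells and the groups of genes. Gapdh, Ldha, Aldoa, Epas1 and Bnip3l fill most columns, while Pfkm, Eno2 and Egln1 are lit in 12, 13 and 14 cells.

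The letters that HIF binds were looked up in the promoters of the listed genes. The core of the hypoxia response element was searched as ACGTG or GCGTG on both strands (CACGTG, which holds the first on both strands, counted once), in the 300 bases from 250 before to 50 after the start in the RefSeq table of build GRCm38.p6. A start was listed for 25 of the genes. There, 19 of 25 held at least 1 match (76%), against 43.8% of 27025 genes in the table, and 15 of 25 held at least 2 (60%), against 17.4%. The list holds known hypoxia targets, so this describes the list, and a match is not a bound site. Shown are Ldha, which held the most matches (5), Hif1a, the gene of the factor itself (2), and Pkm, the 1 gene at least 2-fold lower in Cxcl12-rich cells, whose first listed start held 0 while its other start held 2. Capitals mark the matches.
Ldha promoter, chr7:46845554-46845853, plus strand: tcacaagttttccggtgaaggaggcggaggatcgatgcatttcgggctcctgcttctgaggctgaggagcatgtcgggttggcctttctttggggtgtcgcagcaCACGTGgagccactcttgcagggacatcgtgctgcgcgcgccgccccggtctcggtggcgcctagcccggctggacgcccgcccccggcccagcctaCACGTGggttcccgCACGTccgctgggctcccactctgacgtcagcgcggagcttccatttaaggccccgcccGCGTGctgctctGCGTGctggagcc
Hif1a promoter, chr12:73907617-73907916, plus strand: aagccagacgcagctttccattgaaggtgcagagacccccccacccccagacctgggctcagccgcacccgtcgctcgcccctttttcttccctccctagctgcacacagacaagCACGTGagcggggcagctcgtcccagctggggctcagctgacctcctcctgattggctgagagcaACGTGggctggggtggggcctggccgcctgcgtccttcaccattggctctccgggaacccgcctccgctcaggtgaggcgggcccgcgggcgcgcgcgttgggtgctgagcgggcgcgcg
Pkm promoter, chr9:59656326-59656625, plus strand: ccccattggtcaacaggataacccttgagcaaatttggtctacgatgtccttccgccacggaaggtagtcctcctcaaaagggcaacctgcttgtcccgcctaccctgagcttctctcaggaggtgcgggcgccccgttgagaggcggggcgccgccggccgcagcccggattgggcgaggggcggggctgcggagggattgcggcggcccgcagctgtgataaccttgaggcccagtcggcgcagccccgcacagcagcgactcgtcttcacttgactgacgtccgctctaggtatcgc

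Most steps have paralogous enzymes, and which of them held the counts differed by step. Shares are of the family's counts per kilobase of the longest coding transcript in summed cells. Enolase was Eno1 at 99.7% in all cells. Hexokinase was mostly Hk1, 84.4% in all cells, with 73.2% in Cxcl12-rich cells and 90.9% in Spp1-rich cells. Both hexokinases had counts in 13 cells, while 22 held Hk1 alone and 22 Hk2 alone, and Hk2 was the higher per kilobase in 21 of 38 Cxcl12-rich cells and 5 of 15 Spp1-rich cells with either. Of phosphofructokinase, the main control point of the pathway, Pfkp made up 57.1% in all cells, Pfkl, the liver form, 34.8% and Pfkm, the muscle form, 8.11%. By class the shares were 44.6% Pfkp and 48.1% Pfkl in Cxcl12-rich cells and 51.5% Pfkp and 32.8% Pfkl in Spp1-rich cells. The order in Cxcl12-rich cells depended on the length used. By mean transcript length it was 49.6% Pfkp and 44.7% Pfkl, and without length scaling 48.0% Pfkp and 46.6% Pfkl. The cells of neither class had 38.5 CPM of Pfkp per kilobase, against 5.51 in Cxcl12-rich and 5.13 in Spp1-rich cells. In single cells Pfkl was the highest of the 3 in 31 of 57 cells with a count of any, and no cell held all 3. Pfkl made up 17.1% in VCAM1+CD61+ cells and 57.0% in VCAM1+CD61- cells.

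Lactate dehydrogenase was mostly Ldha, which made up 72.0% in Cxcl12-rich cells and 83.1% in Spp1-rich cells, and 84.7% in VCAM1+CD61+ cells and 68.2% in VCAM1+CD61- cells. Ldhb, the subunit that favours pyruvate, was the higher in 11 of 55 Cxcl12-rich cells and 2 of 20 Spp1-rich cells with a count of either. Of the glucose transporters, Slc2a3 made up 71.6% in Cxcl12-rich cells and 47.4% in Spp1-rich cells, but 1 cell held 98.7% of the Slc2a3 counts of Spp1-rich cells. Of the HIF alpha subunits, Epas1 made up 43.7% in Cxcl12-rich cells and 21.3% in Spp1-rich cells, and it was the higher in 34 of 59 Cxcl12-rich cells and 5 of 19 Spp1-rich cells with a count of either. Of the mitophagy receptors, Bnip3l made up 72.7% in Cxcl12-rich cells and 72.9% in Spp1-rich cells.

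**Figure D2:**
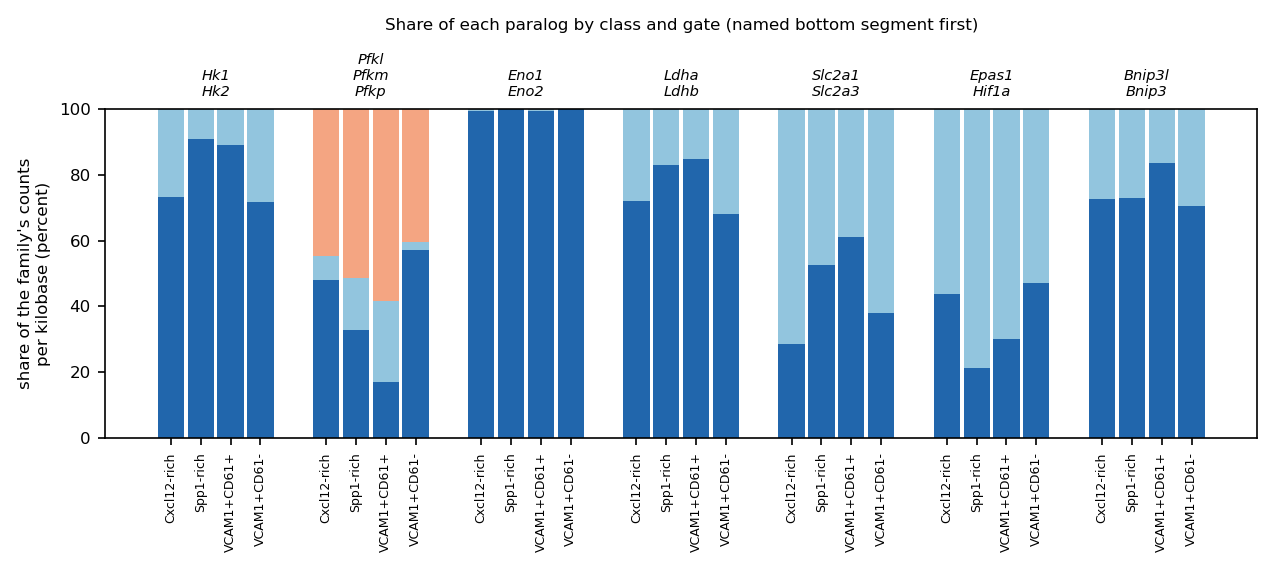
Stacked bars give the share, in percent, of each paralog in its family's counts per kilobase, for summed Cxcl12-rich, Spp1-rich, VCAM1+CD61+ and VCAM1+CD61- cells. Epas1 takes 43.7% in Cxcl12-rich cells and 21.3% in Spp1-rich cells, and Pfkl takes 17.1% in VCAM1+CD61+ cells and 57.0% in VCAM1+CD61- cells.

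In Cxcl12-rich over Spp1-rich cells, 9 of the 29 genes were higher by at least 2-fold and 1 was lower. Among all genes tested, 38.7% were at least 2-fold higher and 11.9% lower, so the share of higher genes in the list was near that background. The median log2 ratio was 0.47 over the listed genes and 0.63 over all genes tested. Spp1 alone took 11.7% of the counts of Spp1-rich cells. With TMM scaling the split was 7 higher to 4 lower and with DESeq2 size factors 7 to 5, while the median of all genes moved to 0.27 and 0.14. Relative to the median of 0.63, 7 genes were at least 2-fold higher (Epas1, Hif1a, Arnt, Egln1, Slc2a3, Pfkfb3 and Eno2) and 6 at least 2-fold lower (Pkm, Ldha, Eno1, Pgk1, Hk1 and Pfkm), where 25% and 22% of all genes tested lay as far above and below. By a second rule, the same direction in every plate, 5 genes were higher in Cxcl12-rich cells and 1 was lower, against 21.7% and 2.46% of all genes. The 5 were Epas1, Hif1a, Arnt, Pdk1 and Ndrg1, and the 1 was Ldhb, by between -0.07 and -0.67, although its pooled log2 ratio was 0.15. The VCAM1+CD61+ plates held 11 Cxcl12-rich and 4 Spp1-rich cells and 10 Cxcl12-rich and 11 Spp1-rich cells. The VCAM1+CD61- plates held 21 and 12 Cxcl12-rich cells, and 2 Spp1-rich cells each, on which their ratios rest. In 14 genes a class had under 3 counts in at least 1 plate, and there the class was set to 3 counts. Among the 5, this held for the Spp1-rich cells of 3 plates in Pdk1 and of both VCAM1+CD61- plates in Arnt and Ndrg1.

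The oxygen sensing genes were the listed group that stood highest in Cxcl12-rich cells. Of these, 4 of 4 measured were at least 2-fold higher, against 38.7% of all genes tested. Their median log2 ratio was 2.45, against 0.63 over all genes tested. Epas1 (chr17:86753700-86833410 of mm10), which encodes HIF2 alpha, had 88.0 CPM in the median Cxcl12-rich cell, with a lowest value of 0 and a highest of 330, against a median of 5.63 CPM in Spp1-rich cells, lowest 0 and highest 78.4. It had a count in 56 of 60 Cxcl12-rich cells and 15 of 20 Spp1-rich cells. The middle range did not overlap: the lower quartile of Cxcl12-rich cells was 49.8 CPM and the upper quartile of Spp1-rich cells 15.7. The sums were 109 CPM in Cxcl12-rich and 12.2 CPM in Spp1-rich cells, 8.94-fold (7.94 to 12.3 when 1 cell was left out), with log2 ratios of 3.17, 4.12, 2.68 and 1.40 in the 4 plates. Among the listed genes counted in 50% or more of Cxcl12-rich and of Spp1-rich cells, Epas1 had the largest difference.

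Hif1a (chr12:73901375-73947530), the gene of HIF1 alpha, had a median of 83.0 CPM in Cxcl12-rich cells (0 to 541) and 42.4 CPM in Spp1-rich cells (0 to 99.6). It had a count in 44 of 60 Cxcl12-rich and 16 of 20 Spp1-rich cells. The ranges overlapped, but the upper quartile was 166 CPM in Cxcl12-rich cells and 53.6 CPM in Spp1-rich cells. The sums, 121 CPM in Cxcl12-rich and 38.6 CPM in Spp1-rich cells, differed 3.13-fold (2.87 to 3.92 without 1 cell). Arnt, the shared partner of both alpha subunits, had sums of 30.2 CPM in Cxcl12-rich and 9.06 CPM in Spp1-rich cells, 3.34-fold, with a count in 27 of 60 Cxcl12-rich and 12 of 20 Spp1-rich cells. Its log2 ratio was 5.26 and 0.31 in the VCAM1+CD61+ plates, while the Spp1-rich cells of the VCAM1+CD61- plates held 1 and 0 counts. Egln1, the prolyl hydroxylase that marks HIF alpha for destruction when oxygen is present, had 7.60 CPM in Cxcl12-rich cells, counted in 8, and 0.227 CPM in Spp1-rich cells, counted in 4. Its fold, 33.5, ran from 12.7 to 60.5 when 1 cell was left out.

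Transporters and flux regulators were sparse and leaned on single cells. Slc2a3, a high-affinity glucose transporter, had a count in 28 of 60 Cxcl12-rich and 5 of 20 Spp1-rich cells, with sums of 46.2 CPM in Cxcl12-rich and 13.4 CPM in Spp1-rich cells, 3.45-fold. Without the 1 Spp1-rich cell that held 98.7% of that class's counts, the fold was 254. Slc2a1, the basal glucose transporter, did not differ by 2-fold, with 15.1 CPM in Cxcl12-rich and 12.2 CPM in Spp1-rich cells (0.897 to 2.11-fold without 1 cell). Slc16a1, which carries lactate and pyruvate, had 3.92 CPM in Cxcl12-rich and 2.84 CPM in Spp1-rich cells (0.562 to 2.67-fold without 1 cell). Pfkfb3, which makes the activator of phosphofructokinase, had 20.7 CPM in Cxcl12-rich and 6.14 CPM in Spp1-rich cells, 3.37-fold, ranging from 1.73 to 5.65 without 1 cell. Pdk1, the kinase that keeps pyruvate out of mitochondria, had 11.8 CPM in Cxcl12-rich and 6.84 CPM in Spp1-rich cells and was higher in Cxcl12-rich cells in all 4 plates (1.72-fold, 1.25 to 5.80 without 1 cell).

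In summed CPM the enzymes did not share 1 direction. Of 16 measured, 3 were at least 2-fold higher in Cxcl12-rich cells and 1 lower, against 38.7% and 11.9% of all genes tested. Their median log2 ratio was -0.19, below the 0.63 of all genes tested. Relative to 0.63, Hk1, Pfkm, Pgk1, Eno1, Pkm and Ldha were at least 2-fold lower. Of the enzymes, only Eno2 was at least 2-fold higher by that measure. Pkm (chr9:59656368-59679375), the pyruvate kinase that makes the last ATP of the pathway, had a median of 1.21 CPM in Cxcl12-rich cells (0 to 289.6) and 96.9 CPM in Spp1-rich cells (0 to 597). It had a count in 33 of 60 Cxcl12-rich and 13 of 20 Spp1-rich cells, and the upper quartile of 42.3 CPM in Cxcl12-rich cells lay below the Spp1-rich median. The sums were 40.2 CPM in Cxcl12-rich and 153 CPM in Spp1-rich cells, a log2 ratio of -1.92. In 3 plates the log2 ratio lay between -1.51 and -2.87, while in the VCAM1+CD61- plate of 16 cells, 12 Cxcl12-rich cells held 781 counts of it and 2 Spp1-rich cells none, a log2 ratio of at least 5.70 over a floor of 3 counts. The counts do not tell the M1 and M2 forms of Pkm apart.

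Ldha (chr7:46841475-46855627) had a median of 332 CPM in Cxcl12-rich cells (0 to 1578) and 845 CPM in Spp1-rich cells (0.583 to 1623). It was counted in 54 of 60 Cxcl12-rich and 20 of 20 Spp1-rich cells, and the upper quartile of Cxcl12-rich cells, 588 CPM, was close to the lower quartile of Spp1-rich cells, 496 CPM. The log2 ratio of the sums was -0.79, short of the 2-fold limit. Within plates it was -1.59, -1.57, -1.07 and 1.00, so the same plate of 16 VCAM1+CD61- cells stood apart. Aldoa went the other way, with a median of 318 CPM in Cxcl12-rich cells (0 to 1254) and 151 CPM in Spp1-rich cells (0 to 1455). Its sums differed 2.05-fold, 1.86 to 2.48 without 1 cell, and the ratio turned round in that plate, at -0.38.

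Of the other enzymes, Hk2 had 7.03 CPM in Cxcl12-rich and 3.35 CPM in Spp1-rich cells, 2.10-fold, and 1.86 to 3.38-fold without 1 cell. Eno2, which few cells held, had 1.23 CPM in Cxcl12-rich and 0.0567 CPM in Spp1-rich cells, which held 3 counts of it (a fold of 21.6, 95% interval 7.26 to 106). Hk1, Gpi1, Pgk1, Pgam1, Eno1, Pfkm and Gapdh had log2 ratios between -0.80 and -0.10, and Tpi1, Pfkp, Ldhb and Pfkl between 0.10 and 0.86. Leaving out 1 cell moved Hk1, Pfkm, Pfkl and Pfkp by over 1.5 times, Pfkp to between 0.866 and 4.56-fold, Pfkl to between 1.38 and 2.92-fold and Hk1 to between 0.462 and 0.902-fold. Several of the lower ones were counted in more of the Spp1-rich cells: Eno1, the main enolase, in 41 of 60 Cxcl12-rich and 19 of 20 Spp1-rich cells, and Pgk1, the first enzyme to make ATP, in 13 of 60 Cxcl12-rich and 11 of 20 Spp1-rich cells. These shares stand beside medians of 4163 genes per Cxcl12-rich cell and 5165 genes per Spp1-rich cell, and the part of that gap was not tested.

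Of 4 targets of hypoxia and stress none reached 2-fold over all cells, but 3 passed it when 1 cell was left out: Bnip3 (1.38 to 3.96-fold), Bnip3l (1.48 to 2.40) and Ndrg1 (0.994 to 2.50). Bnip3l, a mitophagy receptor, had a median of 205 CPM in Cxcl12-rich cells (0 to 1544) and 31.3 CPM in Spp1-rich cells (0 to 902), with sums of 249 CPM in Cxcl12-rich and 155 CPM in Spp1-rich cells. Bnip3, its relative, had sums of 50.3 CPM in Cxcl12-rich and 31.2 CPM in Spp1-rich cells. Ndrg1, a stress gene induced by low oxygen, had 38.3 CPM in Cxcl12-rich and 25.2 CPM in Spp1-rich cells. Ddit4, an inhibitor of mTORC1, had sums of 10.8 CPM in Cxcl12-rich and 10.6 CPM in Spp1-rich cells, yet was counted in 14 of 60 Cxcl12-rich cells and 14 of 20 Spp1-rich cells. After thinning to 500000 counts it was counted in 14 Cxcl12-rich and 13 Spp1-rich cells.

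**Figure D3:**
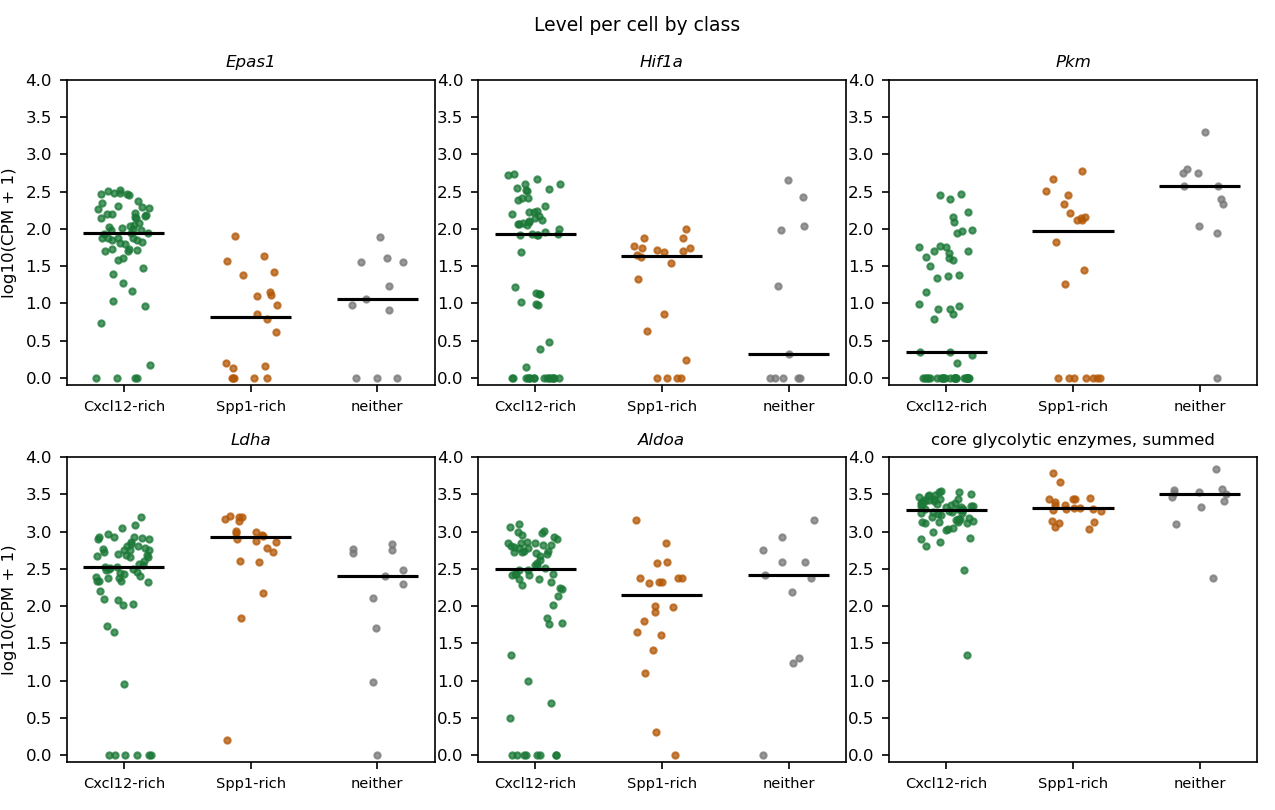
Points are single cells and bars medians, on a log10(CPM + 1) axis, for 5 genes and the summed core enzymes. Epas1 medians are 88.0 CPM in Cxcl12-rich and 5.63 CPM in Spp1-rich cells, Pkm medians are 1.21 CPM in Cxcl12-rich and 96.9 CPM in Spp1-rich cells, while the summed enzymes overlap.

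**Figure D4:**
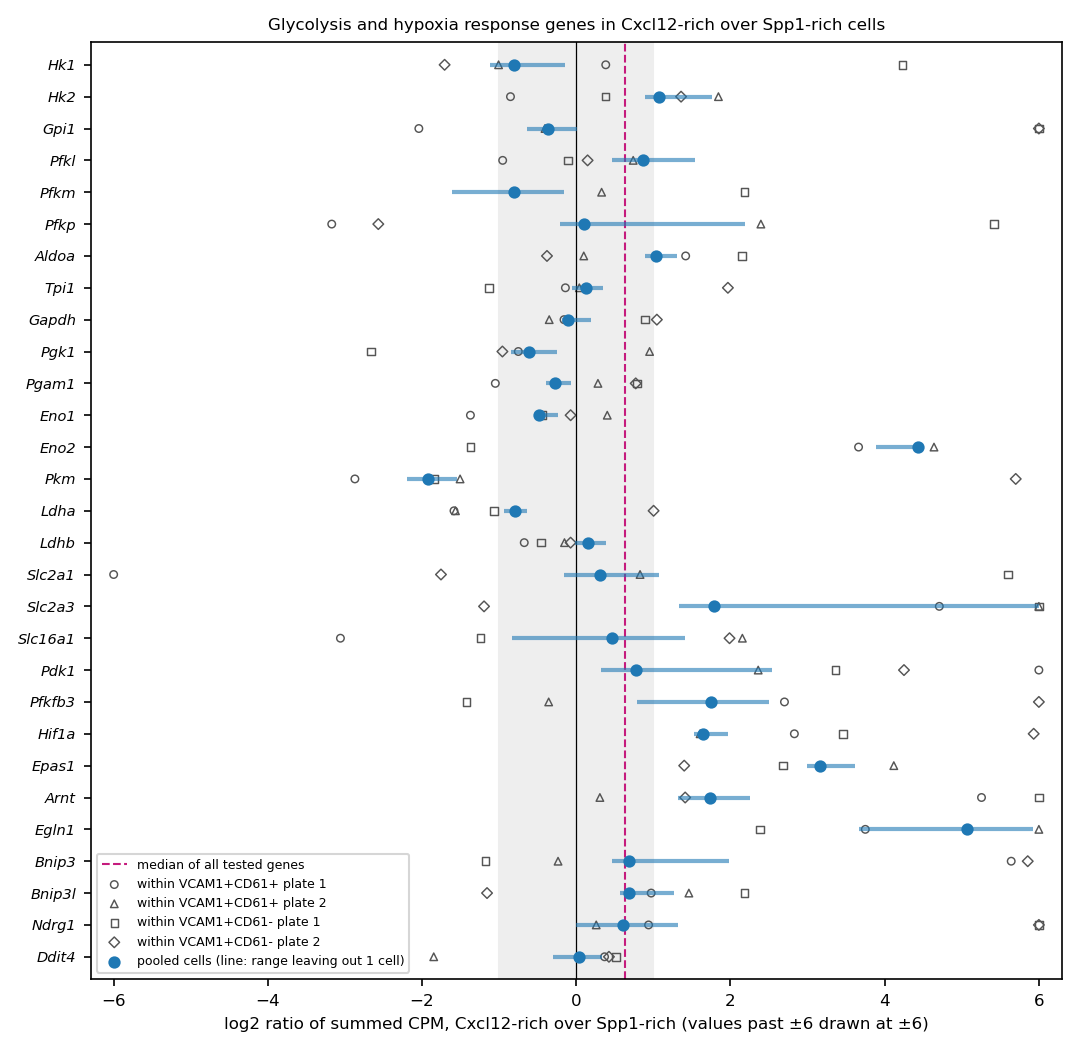
Filled points give the log2 ratio of summed CPM, Cxcl12-rich over Spp1-rich, for 29 genes, lines its range when 1 cell is left out, and open symbols the 4 plates, where a class with under 3 counts is drawn at 3 counts. The grey band is within 2-fold and the dashed line the median of all genes tested, 0.63. Epas1, Hif1a and Arnt lie right of 0 in all plates, and Pkm lies left in 3 of 4.

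The same direction was sought in other genes of these pathways. Of 26 other hypoxia response genes in the table, 11 were at least 2-fold higher in Cxcl12-rich cells and 5 lower, with a median log2 ratio of 0.76. For these and the lists that follow, the shares over all genes were 38.7% higher and 11.9% lower. The 4 most abundant were Angptl4, an inhibitor of lipoprotein lipase, with 524 CPM in Cxcl12-rich and 288 CPM in Spp1-rich cells, Insig2, with 417 CPM in Cxcl12-rich and 429 CPM in Spp1-rich cells, Cited2, which competes with HIF alpha for its coactivator, and Fam162a. Cited2 had 347 CPM in Cxcl12-rich and 68.8 CPM in Spp1-rich cells, and Fam162a had 239 CPM in Cxcl12-rich and 264 CPM in Spp1-rich cells. Of 16 other glycolysis genes tested 6 were higher and 2 lower, with a median of 0.47. The most abundant, Bsg, the chaperone of lactate transporters, had 886 CPM in Cxcl12-rich and 792 CPM in Spp1-rich cells. Among 17 genes of the tricarboxylic acid cycle 1 was higher and 0 were lower, with a median of 0.33. Of 12 genes of pyruvate entry into mitochondria 3 were higher and 1 lower (median 0.66), and of 7 of the pentose phosphate pathway 3 were higher and 0 lower (median 0.88). The median over all genes was 0.63. Immediate early genes, which cell isolation is known to induce, were higher in Cxcl12-rich cells, 15406 CPM summed against 7959 CPM in Spp1-rich cells, 10 of 17 by at least 2-fold. Their sums per cell ran from 0 to 50180 CPM in Cxcl12-rich cells and from 182 to 35830 CPM in Spp1-rich cells. Their part in the differences above was not tested.

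Between the gates, in VCAM1+CD61+ over VCAM1+CD61- cells, 5 of the 29 genes were at least 2-fold higher and 4 lower, against 20.2% and 17.6% of all genes tested. Both plates of a gate lay above both of the other for 9 genes and below for 9, against 20.1% and 17.6% of all genes. The gates differ in their share of Spp1-rich cells, so the comparison was repeated in Cxcl12-rich cells alone, 21 VCAM1+CD61+ and 33 VCAM1+CD61- cells. There 5 genes were at least 2-fold higher and 6 lower, against 25.8% and 17.8% of all genes. Both plates lay above in 7 genes and below in 6, against 21% and 14.6%. The 5 higher were Pdk1, Eno2, Pgk1, Egln1 and Pfkm, and the 6 lower were Pfkl, Ldhb, Slc2a1, Slc2a3, Bnip3 and Ndrg1. Egln1 had a count in 3 of 21 VCAM1+CD61+ and 4 of 33 VCAM1+CD61- cells of the class and Pfkm in 2 VCAM1+CD61+ and 1 VCAM1+CD61- cell. Eno2 was counted in 4 VCAM1+CD61+ and 3 VCAM1+CD61- cells, Slc2a1 in 3 VCAM1+CD61+ and 8 VCAM1+CD61- cells, and Pgk1 in 6 VCAM1+CD61+ and 5 VCAM1+CD61- cells. Of the 11, 9 moved by over 1.5 times when 1 cell was left out, all but Pfkl and Ldhb. Within Cxcl12-rich cells the gates still differed in class markers. Osteolineage markers, those of bone-forming cells, summed to 9258 CPM in VCAM1+CD61+ and 6279 CPM in VCAM1+CD61- cells. Of 12 tested, 6 were at least 2-fold higher and 1 lower, against 25.8% and 17.8% of all genes. CAR cell markers summed to 29507 CPM in VCAM1+CD61+ and 37758 CPM in VCAM1+CD61- cells. Of 11, 0 were higher and 1 lower by that measure. The part of this in the values here was not tested.

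Pkm was higher in VCAM1+CD61+ cells, at 143 and 110 CPM in its plates against 53.2 and 27.5 CPM in the VCAM1+CD61- plates, 3.01-fold pooled. Among Cxcl12-rich cells the sums were 34.8 CPM in the VCAM1+CD61+ gate and 35.1 CPM in the VCAM1+CD61- gate, a log2 ratio of -0.01. Epas1 stood at 55.9 and 61.5 CPM in the VCAM1+CD61+ plates against 94.0 and 89.0 CPM in the VCAM1+CD61- plates, a log2 ratio of -0.65, and its log2 ratio among Cxcl12-rich cells was 0.07. Ldha had a log2 ratio of 0.26 over all cells and -0.67 among Cxcl12-rich cells, with 344 CPM in VCAM1+CD61+ and 545 CPM in VCAM1+CD61- cells. For these 3 genes the log2 ratio within the class thus had another size or sign than over all cells.

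A second group of genes kept its direction within the class. Pfkl, the liver phosphofructokinase, had 7.68 and 4.38 CPM in the VCAM1+CD61+ plates against 22.9 and 57.2 CPM in the VCAM1+CD61- plates, a log2 ratio of -2.63, and -2.42 among Cxcl12-rich cells. It was counted in 14 of 39 VCAM1+CD61+ and 25 of 40 VCAM1+CD61- cells. Ldhb had 77.5 and 89.0 CPM in the VCAM1+CD61+ plates against 131 and 242 CPM in the VCAM1+CD61- plates, with log2 ratios of -1.10 over all cells and -1.03 among Cxcl12-rich cells. Both genes were lower in each VCAM1+CD61+ plate than in each VCAM1+CD61- plate. Slc2a3 had 4.89 and 14.1 CPM in the VCAM1+CD61+ plates against 31.5 and 56.9 CPM in the VCAM1+CD61- plates, with log2 ratios of -2.17 over all cells and -1.03 among Cxcl12-rich cells, where without 1 cell it lay between -1.52 and -0.38. Aldoa was lower in both VCAM1+CD61+ plates, at 221 and 281 CPM against 384 and 407 CPM in the VCAM1+CD61- plates, and did not reach 2-fold pooled. Slc2a1 had 12.2 CPM in VCAM1+CD61+ and 21.3 CPM in VCAM1+CD61- cells, and among Cxcl12-rich cells 5.54 CPM in VCAM1+CD61+ and 22.1 CPM in VCAM1+CD61- cells.

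Higher in VCAM1+CD61+ cells and in their Cxcl12-rich part were Pdk1, at 15.1 and 11.2 CPM in the VCAM1+CD61+ plates against 5.07 and 7.33 CPM in the VCAM1+CD61- plates, and Eno2, at 1.67 CPM in VCAM1+CD61+ against 0.152 CPM in VCAM1+CD61- cells. Without 1 cell the Pdk1 log2 ratio of 1.13 ran from 0.40 to 2.10. Hk1 stood just short of the limit, at 26.1 CPM in VCAM1+CD61+ against 13.1 CPM in VCAM1+CD61- cells, a log2 ratio of 0.997, with a count in 19 of 39 VCAM1+CD61+ and 10 of 40 VCAM1+CD61- cells. Gapdh had 507 CPM in VCAM1+CD61+ and 361 CPM in VCAM1+CD61- cells and was higher in both VCAM1+CD61+ plates. Egln1 had a log2 ratio of 1.60, which 1 cell decided, since without it the value was -0.48. Pfkm, at 2.39, was counted in 9 of 39 VCAM1+CD61+ cells and 1 of 40 VCAM1+CD61- cells, and its value was 0.12 without the second VCAM1+CD61+ plate. Bnip3 had 20.0 CPM in VCAM1+CD61+ and 62.7 CPM in VCAM1+CD61- cells, but its plates overlapped, at 13.8 and 26.5 CPM (VCAM1+CD61+) and 92.7 and 22.2 CPM (VCAM1+CD61-). The summed levels of other genes also differed between the gates. Immediate early genes summed to 7404 CPM in VCAM1+CD61+ cells and 15265 CPM in VCAM1+CD61- cells. Among Cxcl12-rich cells their sums were 7344 CPM in VCAM1+CD61+ and 15808 CPM in VCAM1+CD61- cells. There 1 of 17 was at least 2-fold higher and 11 lower, against 25.8% and 17.8% of all genes. Fibroblast markers summed to 2890 CPM in VCAM1+CD61+ and 399 CPM in VCAM1+CD61- cells, with 6 of 6 tested at least 2-fold higher. Endothelial markers summed to 649 CPM in VCAM1+CD61+ and 148 CPM in VCAM1+CD61- cells. Their plates overlapped, at 1272 and 3.93 CPM (VCAM1+CD61+) and 11.5 and 331 CPM (VCAM1+CD61-). The median cell of each gate had 0 CPM of them, and the highest 12013 CPM (VCAM1+CD61+) and 9423 CPM (VCAM1+CD61-). Among Cxcl12-rich cells, erythroid markers summed to 731 CPM in VCAM1+CD61+ and 126 CPM in VCAM1+CD61- cells. The highest erythroid sum of a Cxcl12-rich cell, 11258 CPM, was in the VCAM1+CD61+ gate. Fibroblast markers among Cxcl12-rich cells summed to 551 CPM in VCAM1+CD61+ and 224 CPM in VCAM1+CD61- cells. The part of all these genes was not tested.

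**Figure D5:**
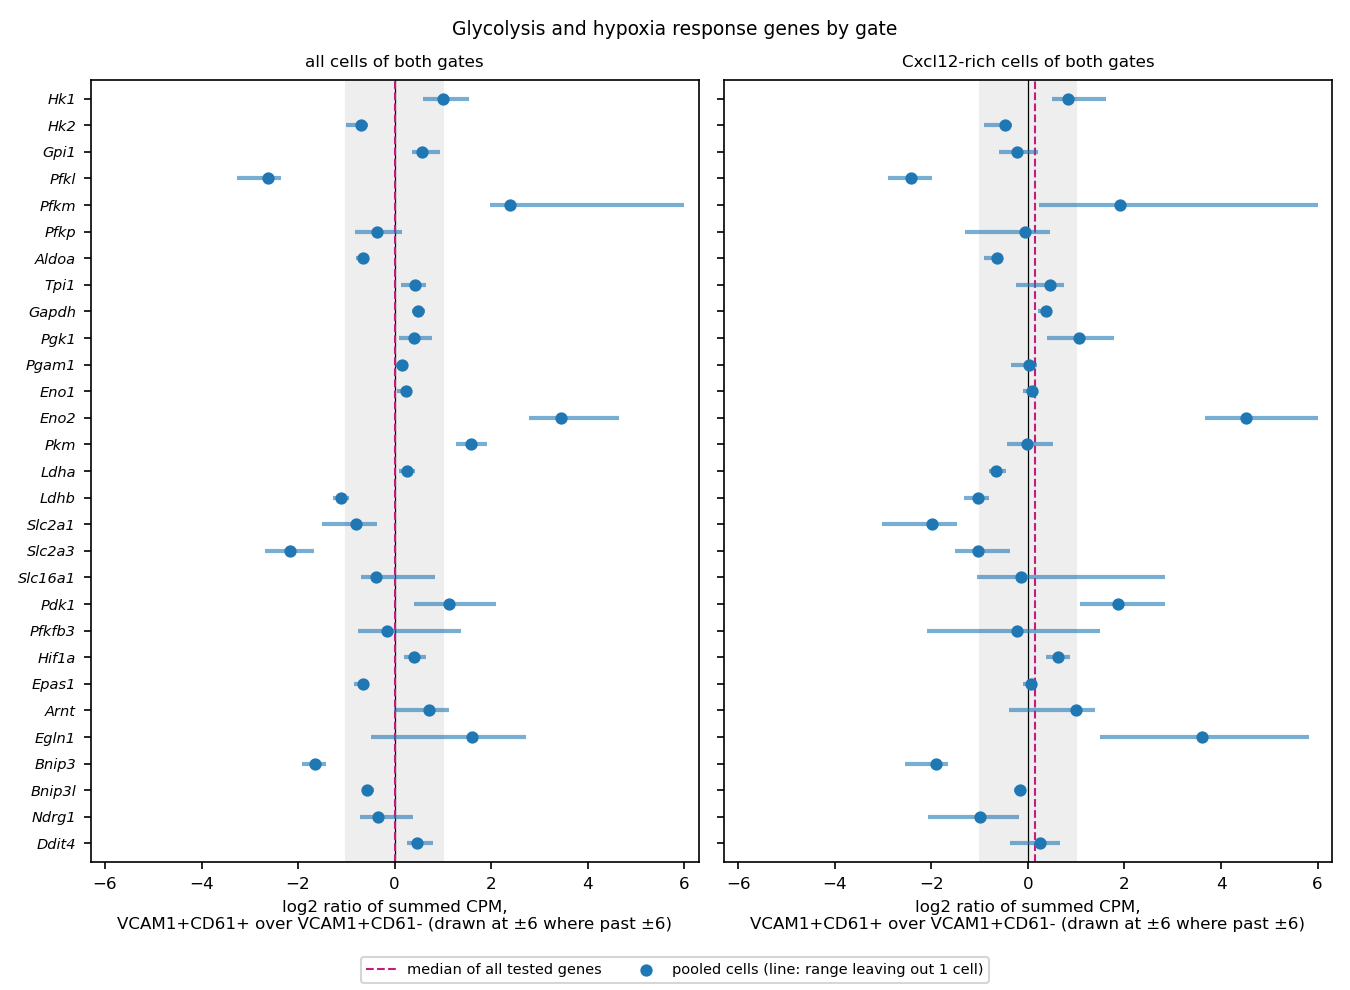
Points give the log2 ratio of summed CPM, VCAM1+CD61+ over VCAM1+CD61-, for all cells of the gates (left) and Cxcl12-rich cells (right), with the range without 1 cell as lines and all-gene medians of 0.01 and 0.15 dashed. Pkm lies at 1.59 left and -0.01 right, and Pfkl at -2.63 left and -2.42 right.

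The 9 VCAM1+ cells and the 11 cells of neither class had other levels of several enzymes. Of the 11, 4 had at least 10 CPM of the endothelial gene Cdh5, 4 had at least 1000 CPM of the fibroblast gene Dcn, 2 had at least 10 CPM of the blood gene Ptprc, and 5 of them came from the VCAM1+ gate. In their sum, Pkm stood at 618 CPM and Gapdh at 850.5 CPM, against 40.2 CPM of Pkm and 384 CPM of Gapdh in Cxcl12-rich cells. Pfkp, the platelet phosphofructokinase, stood at 159.5 CPM, Epas1 at 20.5 CPM, and Hk2 was not counted in any of the 11, where 3 counts would be 0.0909 CPM. The VCAM1+ gate had 567.6 CPM of Pkm, 131 CPM of Pfkp and 0.345 CPM of Pfkfb3 over its 9 cells. Per cell of neither class, Pkm ran from 0 to 2009 CPM and Gapdh from 5.28 to 2097 CPM. The cell with the most Pkm was a VCAM1+ cell, so it entered both sums.

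Some of these genes have near-identical copies that can take or lend reads. Of the 31-base words of its longest coding transcript, Gapdh shared 84.1% with other genes, Eno1 77.2%, Bnip3 74.7%, Pgk1 68.3% and Pkm 50.9%. In all, 14 of 29 genes shared under 5%, Epas1 with 0.895% among them. Pfkp shared 17.4% with a gene that held 14531 counts, against 9243 for Pfkp, and the part of this in its level was not tested. In the table, copies of Gapdh held 13.5% of the joint counts, Pgam1-ps2 20.2% of those with Pgam1 and Bnip3l-ps 26.5% of those with Bnip3l. The levels of these 3 genes are thus uncertain, and the size of that error was not tested.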

How the data were processed

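Messenger RNA was measured by Smart-seq2 in 91 single index-sorted cells. The authors deposited an estimated count per gene and cell. The submitters' processing notes name kallisto 0.43.0, the build mm10 and R 3.5.1 without saying what each did, and the annotation used is not stated there. All values were whole numbers and no gene name was blank. The counts of reads and genes per cell, and the forward scatter intensity of the index sort, were used as deposited by the authors. The other 45 columns of that table were not used.

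The members and gene lists were chosen with earlier results of these data known. Counts were summed over the cells of a class or gate and scaled to CPM. Genes with 10 or more counts in all, spread over 5 or more cells, entered the comparisons, 14611 of 16580. A gene was called at a 2-fold ratio of summed CPM, and a group below 3 counts was set to that floor. By the naming rule, every member is accounted for, and of another list at most the 4 genes with the highest summed CPM are named, beside Cxcl12 and Spp1. The markers Cdh5, Ptprc and Dcn were named after their values were seen. Intervals are exact 95% binomial intervals and cover counting error only. Those of shares rest on the number of cells, taken as independent, and those of folds on the summed counts of the gene. Each gate is 1 sample, so no p-value was made. No cell was removed and no doublet caller was run. Lengths, positions and shared words come from GENCODE vM21, promoters from RefSeq. Sums and intervals were computed in python 3.11.15 (pandas 2.3.3, scipy 1.17.1, numpy 2.4.6) and drawn with matplotlib 3.10.9, with edgeR 4.0.16 (TMM) and DESeq2 1.42.0 (size factors) in R 4.3.3 for scaling alone. The ratios were checked on simulated counts, in which 199 of 200 genes changed 4-fold passed 2-fold in the right direction. Only genes counted in at least 50% of cells were checked. The simulated cells varied around a shared mean with a fixed spread that was not fitted to these cells. The check thus says nothing of genes counted in fewer cells or carried by 1 cell, nor of the real spread between cells. The alternatives tried were other scalings, mean CPM per cell, other limits for class, fold, depth and filter, and leaving out cells or plates. Adding the counts of near-identical copies, comparing the classes in the VCAM1+CD61+ gate alone, and comparing the gates in Cxcl12-rich and Spp1-rich cells together, were chosen after seeing the data.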

Additional observations from a re-analysis of the deposited data

Results flagged for a closer look

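For 2 of the 26 genes with a value in all 4 plates, the classes lay in opposite order in the gates, with both plates of each gate on the same side. The log2 ratio of Gpi1, Cxcl12-rich over Spp1-rich, was -1.13 in VCAM1+CD61+ cells and at least 7.76 in VCAM1+CD61- cells, whose 4 Spp1-rich cells held no count of it and were set to 3 counts in sum. That of Gapdh was -0.20 in VCAM1+CD61+ cells and 0.96 in VCAM1+CD61- cells. The difference between the gates was not tested, and the Gapdh value of the VCAM1+CD61- gate rests on the same 4 cells.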

How the results depend on the processing

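Of 1131 log2 ratios of single genes under alternatives, 956 stayed within 1.5 times. Among called genes 3 values changed sign, and among genes under 2-fold 113, in 14 of 19 genes between the classes, 9 of 20 between the gates and 13 of 18 between the gates among Cxcl12-rich cells. Between the classes, all 10 called genes kept their direction under the alternatives run and 7 stayed past 2-fold (Eno2, Pkm, Slc2a3, Hif1a, Epas1, Arnt and Egln1). Between the gates 8 of 9 kept direction and 4 stayed past 2-fold, and among Cxcl12-rich cells 9 of 11 and 4. No alternative took a single plate alone. Within plates, the class log2 ratio turned round in the second VCAM1+CD61- plate for Pkm (5.70), Slc2a3 (-1.20) and Aldoa (-0.38). That of Hk2 did so in the first VCAM1+CD61+ plate (-0.85). That of Pfkfb3 did so in the second VCAM1+CD61+ (-0.36) and first VCAM1+CD61- plate (-1.42). Epas1, Hif1a and Arnt kept direction in all 4 plates.

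The 1 gene at least 2-fold lower in Cxcl12-rich cells became 4 with TMM scaling (Hk1, Pfkm, Pkm and Ldha), 5 with DESeq2 size factors, which add Pgk1, 3 by mean CPM per cell, 2 in cells of at least 1000000 counts and 3 within the VCAM1+CD61+ gate, an alternative chosen after seeing the data. At 1.5-fold, 14 were higher and 5 lower. Leaving out 1 cell or plate gave 1 to 2 lower. The core enzyme log2 ratio between the classes, -0.24, was -0.72 with DESeq2 size factors.

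Between the gates, the core enzyme log2 ratio of 0.13 was 0.065 by mean CPM per cell, 0.17 without the 7 cells with at least 10 counts of Cdh5, Ptprc or Laptm5, 0.038 without Gapdh and 0.012 to 0.16 with 1 cell or plate left out. At 1.5-fold, 8 genes were lower, and with 1 cell or plate left out 4 to 8 were higher, the 8 without the second VCAM1+CD61- plate. Egln1 ran from -0.48 to 2.73 then, and was 2.89 without the 7 cells.

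Among Cxcl12-rich cells of the gates, the core enzyme log2 ratio of -0.21 was -0.37 without Gapdh, and 8 genes were higher at 1.5-fold. With 1 cell or plate left out, 4 to 8 were higher, the 8 without the second VCAM1+CD61- plate, and 3 to 11 lower, with 3 without the first VCAM1+CD61+ plate, the second VCAM1+CD61- plate or 1 cell, and 11 without the second VCAM1+CD61+ plate. Pfkm ran from -3.38 to 7.15, both against a gate with no count set to 3 counts, and Ndrg1 from -3.20 to 0.068. The cause was not tested.

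No paired analysis was possible because the numbers in the labels name cells and each gate is 1 sample, so no fit was made. Genes with counts in few cells are limited by the number of cells, and ratios of the VCAM1+CD61- plates by 2 Spp1-rich cells each.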
